A study of Homo sapiens with 18 samples.

Results

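The rexinoid A41 was set against the rexinoid A98 in U87 cells, an established cell line grown from a human glioblastoma. The comparison held 6 of the 18 libraries of the series, chosen by the treatment in their titles: 3 of cells given A41 and 3 of cells given A98. Both compounds were given once at 100 nM for 24 h, so dose and time were matched. Cells given bexarotene, a rexinoid in clinical use, at the same dose and time, and cells given ethanol, the vehicle, are quoted where they place a level, with 3 libraries each. The cells of all groups carried no genetic modification, and each group is 1 cell line. Both compounds are known here only by their codes, and A98 is written as A90 in the names of its deposited tables. They formed 1 pair, so p-values needed no adjustment over pairs. Whether replicate libraries are separate cultures is not stated in the labels; the spread behind each p-value may therefore be technical.

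Rexinoids bind and activate the retinoid X receptor (RXR). RXR sits on DNA together with a partner, and the partner decides which genes are reached: retinoic acid receptors (RAR) reach genes of retinoid handling and patterning, liver X receptors (LXR) reach genes of cholesterol export and fatty acid synthesis, and peroxisome proliferator-activated receptors (PPAR) reach genes of fatty acid use. In a heterodimer with RAR, RXR is usually described as a silent partner that needs a RAR ligand, whereas heterodimers with LXR and PPAR can be switched on through RXR alone. RAR targets include the enzymes that remove retinoic acid, so a rise of those enzymes is a common readout of RAR activity.

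Levels are TPM, the share of a library's transcripts per length of gene, scaled between libraries by median of ratios. A difference is A41 minus A98 in log2(scaled TPM + 1), a scale on which low genes show less than their full change. Its 95% interval is not adjusted for the number of genes. Adjusted p-values are from limma with Benjamini-Hochberg adjustment over 18269 genes, and 0.05 was the threshold. The libraries rested on 3.20, 2.37 and 1.92 aligned gigabases in A41 and on 1.67, 1.78 and 1.82 in A98. A41 replicate 2 held 56.1% of its TPM in ribosomal RNA, where the 5 remaining libraries of the pair held 0.330% to 1.93%, and it stood apart on the leading principal component of the 6, which carried 42.1% of their variance. Pearson's r across genes was 0.951 to 0.979 within A41, 0.976 to 0.978 within A98 and 0.951 to 0.978 between them. The label calls the cells glial. Mesenchymal genes were abundant (VIM averaged 3503 scaled TPM in A41 and 4286 in A98, CD44 885 and 980), and the astrocyte filament gene GFAP averaged 1.04 and 0.752. The astrocyte gene S100B and the microglial gene AIF1 were listed at 0 in both groups, and the oligodendrocyte gene MOG at 0 in A41. Among further microglia and leukocyte markers, CD68 averaged 193 in A41 and 173 in A98, and CSF1R 12.5 and 11.3. PTPRC, CX3CR1 and ITGAM were below the level for testing. Of 37 marker genes of 7 cell types, 22 were tested and 0 passed. The summed level of 7 astrocyte markers was 299.7 to 373 scaled TPM in A41 and 266 to 289 in A98, that of 6 neuronal markers 194 to 244 and 249 to 292, and that of 4 mesenchymal markers 4620 to 4893 and 5473 to 5690, so these sums did not overlap; nor did those of 4 epithelial markers (2.60 to 3.05 and 1.04 to 2.40) and 5 endothelial markers (4.52 to 5.29 and 3.43 to 4.46). Sums overlapped for 5 oligodendrocyte markers (30.85 to 38.5 in A41 and 28.2 to 31.5 in A98). They also overlapped for 6 microglia and leukocyte markers (177 to 245 and 179 to 191). CLU made up most of the astrocyte sum (means 241 and 181, log2 difference 0.39). GFAP was also higher (0.28), and SLC1A3 (-0.24) and GJA1 (-0.18) were lower. VIM (-0.29) made up most of the mesenchymal sum, with CD44 (-0.15) and COL1A1 (-0.02) also lower and FN1 (0.12) higher. The part of these markers in the differences between the compounds was not tested.

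A41 and A98 differed at 24 genes, 0.131% of those tested. A41 was higher at 19 (0.104%) and lower at 5 (0.0274%), and 1306 genes had an unadjusted p under 0.05. The 6 genes with the smallest p-values, all higher in A41, were the retinoid-handling genes CYP26B1, STRA6 and DHRS3, the prostaglandin synthase PTGES, the transglutaminase TGM2 and the differentiation inhibitor ID1. The median difference of all genes was 0.00. On TPM as deposited, where the median of all genes moved to -0.42, the calls were 1 higher, STX16-NPEPL1, and 0 lower, and the 6 genes just named had adjusted p-values of 0.48 to 0.98. With a constant total in place of median of ratios the calls were 6 higher and 3 lower; of the 6 named genes ID1 lost its call there (adjusted p = 0.32), as it did in a fit of the 6 libraries of the pair alone (0.136). These 6 genes were the calls made without the 3 libraries rich in ribosomal RNA (A41 replicate 2, bexarotene replicate 1 and ethanol replicate 2), with adjusted p-values from 0.00015 for DHRS3 to 0.0036 for STRA6. They also passed whichever 1 of the 9 A41, A98 and ethanol libraries was left out. The other 18 calls were lost in at least 1 of these omissions. Of these 18, only SNORA70G, SPRY2 and STX16-NPEPL1 passed with a constant total, and only FAM20C, SMAD3 and STX16-NPEPL1 in the fit of the pair alone.

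**Figure D1:**
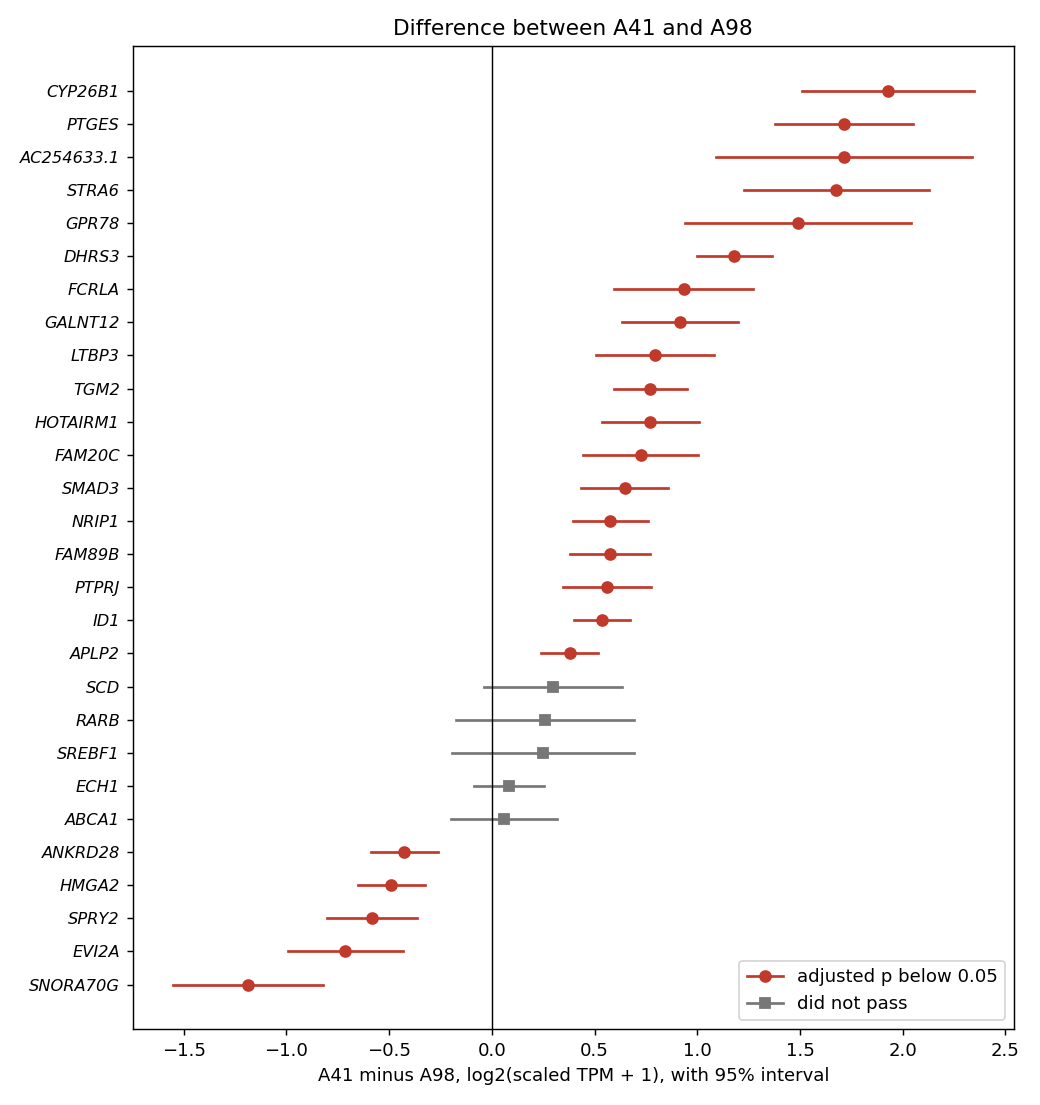
The difference between A41 and A98 on the log2(scaled TPM + 1) axis with its 95% interval is shown for 23 of the 24 genes that passed the test (red circles) and for 5 genes that did not (grey squares); STX16-NPEPL1, at 7.59, lies beyond the axis and is left out. CYP26B1 is at the top with 1.93, and the intervals of SCD, RARB, SREBF1, ECH1 and ABCA1 all include 0.

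Retinoid-handling genes were among those with the largest differences, and their promoters are shown because 3 of them moved together while RARB, the textbook RAR target, did not pass. Each line is the 250 bases before the RefSeq start on the gene's own strand, 5′ to 3′, in GRCh38.p14. Capitals mark matches on either strand to the nuclear receptor half-site, searched as AGGTCA or AGTTCA and with G accepted in place of the leading A of each.
CYP26B1: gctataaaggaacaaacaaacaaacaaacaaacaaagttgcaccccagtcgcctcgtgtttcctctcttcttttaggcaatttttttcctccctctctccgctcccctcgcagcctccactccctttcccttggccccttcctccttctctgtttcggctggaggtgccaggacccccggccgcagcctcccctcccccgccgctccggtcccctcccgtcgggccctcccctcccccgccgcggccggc
DHRS3: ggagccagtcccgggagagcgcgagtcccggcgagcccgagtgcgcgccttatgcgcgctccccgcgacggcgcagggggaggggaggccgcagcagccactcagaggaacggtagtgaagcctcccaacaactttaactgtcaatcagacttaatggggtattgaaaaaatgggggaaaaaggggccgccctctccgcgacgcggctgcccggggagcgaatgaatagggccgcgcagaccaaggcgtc
STRA6: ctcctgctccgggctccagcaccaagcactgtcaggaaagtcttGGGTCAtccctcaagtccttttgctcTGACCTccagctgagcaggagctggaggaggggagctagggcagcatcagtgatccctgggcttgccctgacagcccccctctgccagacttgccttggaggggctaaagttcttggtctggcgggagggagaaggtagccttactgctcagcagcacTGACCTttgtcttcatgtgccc
RARB: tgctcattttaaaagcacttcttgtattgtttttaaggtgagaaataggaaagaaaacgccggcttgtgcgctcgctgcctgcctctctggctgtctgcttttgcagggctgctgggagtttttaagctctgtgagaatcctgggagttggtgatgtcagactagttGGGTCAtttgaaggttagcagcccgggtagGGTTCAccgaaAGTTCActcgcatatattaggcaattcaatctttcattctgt

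The windows lie at chr2:72147863-72148112 for CYP26B1, chr1:12618211-12618460 for DHRS3 and chr15:74212260-74212509 for STRA6, all on the minus strand, and at chr3:25428013-25428262 on the plus strand for RARB. Direct repeats with 1, 2, 4 or 5 bases between the half-sites were searched, and of these windows only that of RARB held one, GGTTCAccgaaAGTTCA, with a spacing of 5 and its outermost base 53 bases before the start. The RARB window was chosen among the 4 of this gene because it holds that repeat, so the contrast with the other windows is not a result. For the other genes the window nearest the listed 5′ end was taken, out of 1 for CYP26B1, 3 for DHRS3 and 5 for STRA6. STRA6 held 3 single half-sites, and CYP26B1 and DHRS3 held 0. Over the 10499 tested genes with a RefSeq window of 300 bases (these 250 and 50 after the start), 35.5% held at least 1 half-site and 0.0762% held such a repeat with a spacing of 5. The RefSeq start of CYP26B1 lies 176 bases inside the span listed in the deposited tables, and that of RARB, a gene with several starts, 253931 bases inside. A match is a description of letters, and a window without one says nothing of sites elsewhere.

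CYP26B1 and DHRS3 clear retinoic acid and its precursor, and both were higher in A41. CYP26B1 encodes a cytochrome P450 that oxidizes retinoic acid; it spans bases 72129238 to 72148038 of chromosome 2 (GRCh38, minus strand). Its level was 67.5, 54.5 and 52.0 scaled TPM in A41, against 15.6, 12.95 and 14.8 in A98. Every A41 library thus lay above every A98 library, at 4.01 times the A98 mean. The log2 difference was 1.93 (SE 0.20, 95% interval 1.51 to 2.35, adjusted p = 0.000325), the largest of the 24 apart from that of the readthrough gene STX16-NPEPL1. DHRS3, on chromosome 1 from base 12567910 to base 12618210, encodes a reductase that returns retinaldehyde to retinol. It had 159, 145 and 161 scaled TPM in A41, against 69.6, 66.5 and 67.4 in A98. The A41 mean was 2.29 times the A98 mean, with little spread in either group, and the log2 difference of 1.18 (SE 0.09, 95% interval 1.00 to 1.36) had the smallest adjusted p among the named genes, 8.93e-06. The other clearance genes listed, CYP26A1, CYP26C1, UGT2B7 and CYP2S1, were below the level for testing, so the 2 of 2 tested members that passed are the whole of what could be read.

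STRA6, the membrane transporter that takes up retinol from its carrier in blood, was low, and its difference lay between those of CYP26B1 and DHRS3. Its level was 9.496, 6.97 and 7.46 scaled TPM in A41, against 2.02, 1.42 and 1.96 in A98. The groups did not overlap, and the log2 difference was 1.68 (SE 0.21, 95% interval 1.23 to 2.13, adjusted p = 0.0025). Of 12 tested genes of retinoid uptake, binding and retinoic acid synthesis, STRA6 alone passed the test, and the median difference was 0.03 against 0.00 for all genes. The binding protein gene CRABP2 had 0.51 (adjusted p = 0.73), the retinol dehydrogenase gene RDH10 0.18 (0.75) and the retinaldehyde dehydrogenase gene ALDH1A3 -0.14 (0.73).

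Among 14 tested RAR target genes, 5 were higher in A41 and 0 lower: CYP26B1, DHRS3, STRA6, TGM2 and NRIP1. Of all genes 0.104% were higher and 0.0274% lower. The list was drawn up with earlier results of these data known, so its count and median may be partly set by that choice. The median difference of the list was 0.66, beside 0.00 for all genes, and 12 of the 14 differences were positive. TGM2, the transglutaminase that cross-links proteins, had 358, 353 and 320 scaled TPM in A41, against 206, 197 and 199 in A98. The groups were well apart, with a log2 difference of 0.77 (SE 0.08, adjusted p = 0.00048). NRIP1, a corepressor that binds nuclear receptors in the presence of ligand, had 50.5, 44.9 and 43.1 in A41, against 29.8, 31.7 and 30.2 in A98 (log2 difference 0.58, adjusted p = 0.011). It was the 1 member of 18 coactivators and corepressors that passed, and its call was lost without A41 replicate 1 (adjusted p = 0.057), A98 replicate 1 (0.059) or A98 replicate 3 (0.083). RARB did not pass: its level was 10.96, 6.27 and 6.93 in A41, against 7.16, 5.82 and 6.23 in A98. The groups overlapped, and the log2 difference was 0.26 with a 95% interval of -0.17 to 0.69 (adjusted p = 0.79). Among the remaining members were PLAAT4 at 0.70 (adjusted p = 0.70), HOXA4 at 0.68 (0.69), RARRES1 at 0.64 (0.64), HOXA5 at 0.77 (0.088), CRABP2, HOXB4 at -0.08 and RARA at -0.20.

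None of the receptor genes passed the test. Of 15 tested genes of RXR and its partners, 0 passed, and the median difference was 0.08. RXRB averaged 8.76 ± 0.24 scaled TPM in A41 and 8.93 ± 0.47 in A98 (SD, n = 3 each), with a 95% interval of the log2 difference from -0.27 to 0.22. RXRA averaged 5.42 ± 0.28 in A41 and 6.07 ± 0.08 in A98 (interval -0.43 to 0.15). RARG averaged 29.2 ± 3.4 and 28.7 ± 3.2, and RARA 16.2 ± 0.55 and 19.1 ± 4.4, in A41 and A98. The vitamin D receptor gene VDR had the smallest p of the list, with 29.2, 28.96 and 31.3 in A41, against 21.0, 20.9 and 23.2 in A98 (log2 difference 0.44, SE 0.09, adjusted p = 0.096). Its groups did not overlap, which was also true, with A41 higher, of 6.11% of all genes.

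**Figure D2:**
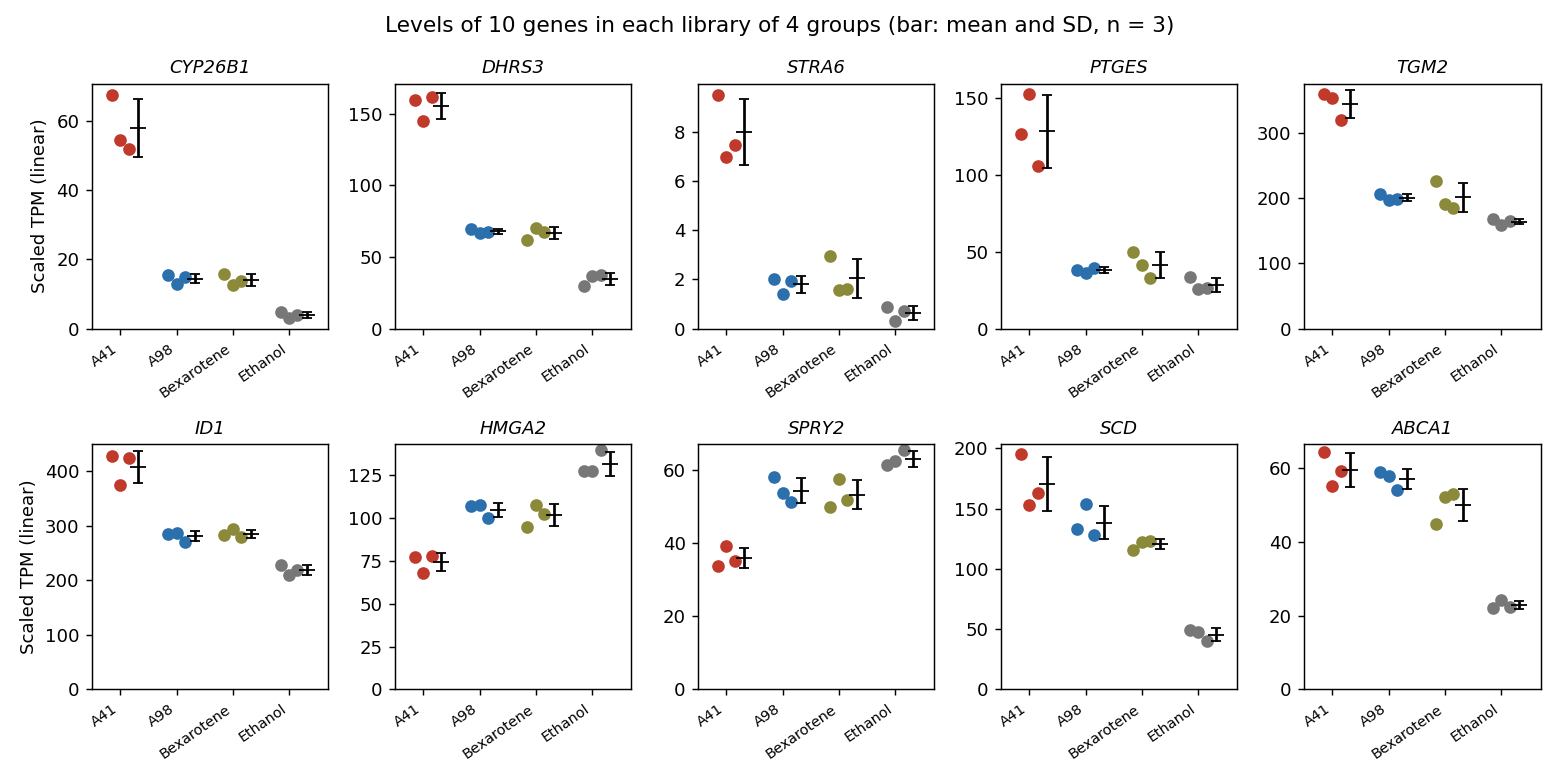
Scaled TPM of 10 genes is plotted for every library of A41, A98, bexarotene and ethanol on linear axes that start at 0, with the mean and SD of each group (n = 3). CYP26B1, DHRS3, STRA6, PTGES, TGM2 and ID1 are higher in A41 than in A98, HMGA2 and SPRY2 are lower, and SCD and ABCA1 overlap between A41 and A98 while both lie above ethanol.

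Genes of the LXR pathway did not separate the compounds, although both compounds raised some of them against ethanol. Of 9 tested LXR targets 0 differed between A41 and A98, with a median of 0.06. ABCA1, the cholesterol exporter, had 64.2, 55.0 and 59.0 scaled TPM in A41, against 58.9, 57.8 and 53.9 in A98. The groups overlapped, and the log2 difference was 0.06 with a 95% interval of -0.20 to 0.32 (adjusted p = 0.94). SCD, the desaturase that makes oleic acid, had 195, 153 and 163 in A41, against 133, 154 and 128 in A98 (log2 difference 0.30, interval -0.04 to 0.63, adjusted p = 0.71). The lipogenic regulator SREBF1 averaged 15.4 ± 2.2 in A41 and 12.8 ± 1.9 in A98, with a log2 difference of 0.25 and an interval of -0.19 to 0.69. Against ethanol, where 0.509% of all genes were higher with A41 and 0.0328% with A98, SCD was higher by 1.88 with A41 (adjusted p = 8.19e-06) and by 1.58 with A98 (0.00023). ABCA1 was higher by 1.34 with A41 (1.76e-05) and by 1.28 with A98 (0.00016). Fatty acid synthesis had 0 of 11 genes past the threshold and a median of 0.14, cholesterol synthesis and uptake 0 of 24 and 0.01.

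PPAR targets gave the same count, 0 of 14, with a median of -0.04. The enoyl-CoA isomerase gene ECH1 had 62.4, 61.4 and 58.3 scaled TPM in A41, against 60.6, 55.7 and 55.4 in A98, and the log2 difference of 0.08 had an interval of -0.09 to 0.25 (adjusted p = 0.84). The lipase inhibitor gene ANGPTL4 varied most, with 138, 61.7 and 52.2 in A41, against 96.2, 50.3 and 46.5 in A98. Replicate 1 was the highest library of both groups, and the interval of -0.97 to 1.62 is too wide to tell a difference from none. The starvation-induced kinase gene PDK4 averaged 1.47 ± 0.07 in A41 and 2.30 ± 0.57 in A98 (log2 difference -0.40, adjusted p = 0.71).

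Since A41 and A98 were set against the same ethanol libraries, the difference between their changes is A41 minus A98 itself, and the 3 contrasts are not independent. CYP26B1 was higher than ethanol by 3.58 with A41 (adjusted p = 7.41e-08) and by 1.66 with A98 (0.0014). DHRS3 was higher by 2.13 (1.51e-09) with A41 and by 0.95 (0.00016) with A98. The secretory pathway kinase gene FAM20C was higher by 1.83 (1.71e-06) with A41 and by 1.10 (0.0014) with A98. For these 3 genes both compounds passed the test, and A41 stood further from ethanol. STRA6 was higher by 2.46 with A41 (1.07e-05), and with A98 its difference from ethanol was 0.78 (0.58). A98 averaged 14.4 ± 1.35 scaled TPM for CYP26B1, 67.9 ± 1.6 for DHRS3 and 1.80 ± 0.33 for STRA6, beside 14.1 ± 1.6, 66.7 ± 4.1 and 2.05 ± 0.80 in bexarotene (SD, n = 3 each); no test was made against bexarotene.

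**Figure D3:**
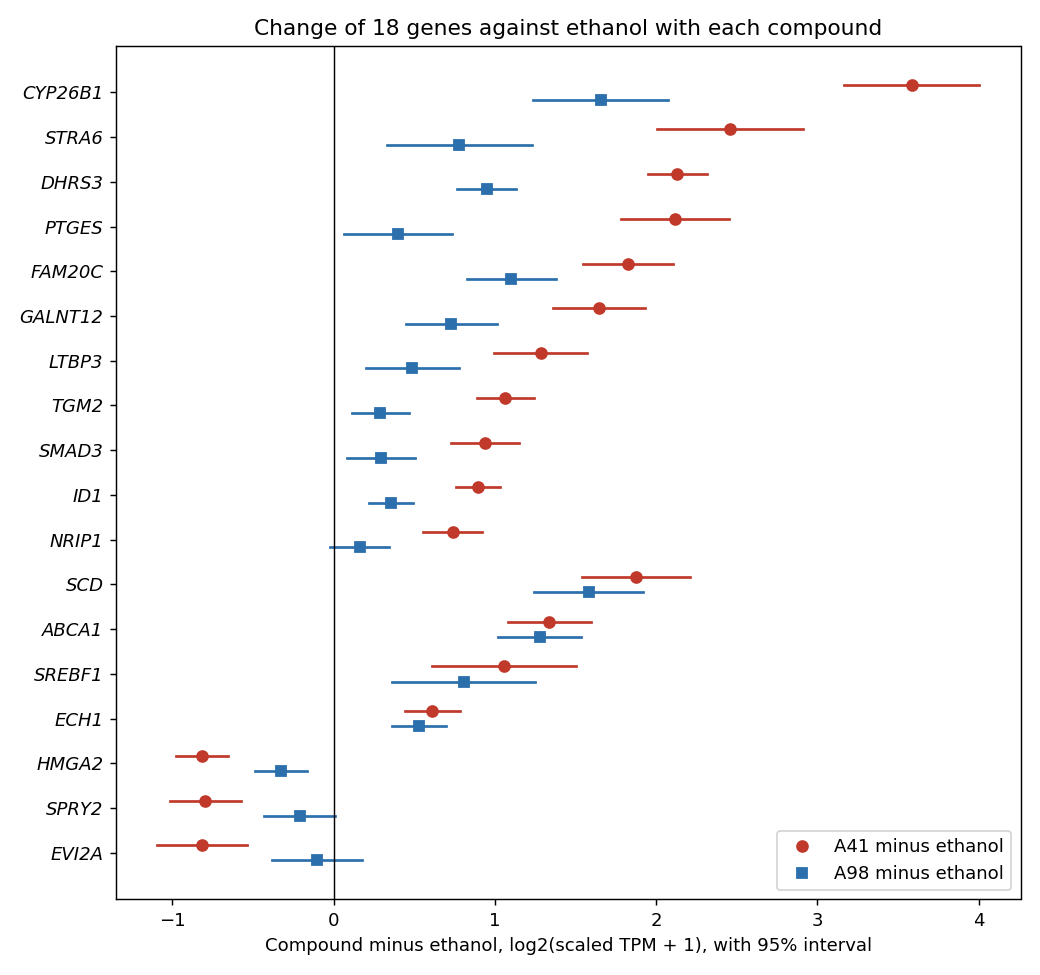
Differences from ethanol on the log2(scaled TPM + 1) axis are shown with 95% intervals for 18 genes, A41 as red circles above A98 as blue squares. The intervals overlap for SCD, ABCA1, SREBF1 and ECH1. They are apart for every other gene shown, such as CYP26B1 (3.58 with A41, 1.66 with A98), and each of those was a call between A41 and A98. Both contrasts use the same 3 ethanol libraries.

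PTGES encodes the inducible synthase that makes prostaglandin E2, a lipid mediator of inflammation. It had 127, 153 and 105 scaled TPM in A41, against 38.3, 36.0 and 39.6 in A98. The lowest A41 library was far above the highest A98 library, and the log2 difference was 1.71 (SE 0.16, 95% interval 1.38 to 2.05, adjusted p = 0.00012). The 7 other tested genes of the prostaglandin E2 pathway did not pass: the inducible cyclooxygenase gene PTGS2 had -0.05 (adjusted p = 0.98), PTGES2 0.08 (0.90), the phospholipase gene PLA2G4A 0.18 (0.78) and the receptor gene PTGER4 -0.23 (0.77). Ethanol cells averaged 28.7 ± 4.5, and A98 differed from them by 0.40 (adjusted p = 0.72). As bulk RNA was measured, more RNA per cell and more cells that express a gene cannot be told apart.

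A group of 3 genes tied to TGF-beta and BMP signals was higher in A41: ID1, SMAD3 and LTBP3. They were 3 of 22 tested members, with 0 lower, beside 0.104% of all genes higher and 0.0274% lower. The median of the list was 0.03, beside 0.00 for all genes. This list too was chosen with earlier results of these data known, so its count may be partly set by that choice. ID1, a BMP target that blocks differentiation factors, had 427, 374 and 423 scaled TPM in A41, against 285, 287 and 270 in A98 (log2 difference 0.54, SE 0.06, adjusted p = 0.0015). Its family members ID2 and ID3 had -0.47 and -0.30 (adjusted p = 0.69 and 0.73). SMAD3, the transcription factor that carries the TGF-beta signal into the nucleus, had 78.1, 70.3 and 74.3 in A41, against 47.5, 47.7 and 46.0 in A98 (0.65, adjusted p = 0.0135). Its partner SMAD4 and the related SMAD2 had -0.09 and -0.29. LTBP3, which holds latent TGF-beta in the matrix, had 141, 174 and 149 in A41, against 93.7, 85.8 and 85.7 in A98 (0.79, adjusted p = 0.031). The target CCN2 had -0.06 and did not pass. With a constant total, and on TPM as deposited, 0 of the list passed: the adjusted p-values with a constant total were 0.32 for ID1, 0.28 for SMAD3 and 0.11 for LTBP3. The call for SMAD3 was lost without A41 replicate 1 or 3 or any 1 A98 library (adjusted p = 0.057 to 0.11), and that for LTBP3 in each omission but that of ethanol replicate 1 (0.051 to 0.19).

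LTBP3 lies on chromosome 11 from base 65538559 to base 65558930, and 13418 bases beyond it begins FAM89B, a further call that was singled out after its values were seen. FAM89B had 40.8, 42.0 and 41.05 scaled TPM in A41, against 25.7, 29.9 and 26.8 in A98, with a log2 difference of 0.58 (adjusted p = 0.018). Among genes within 50 kb of this pair, none of the following passed: MAP3K11 had 0.03, PCNX3 0.08, MALAT1 0.07 and EHBP1L1 0.35 (adjusted p = 0.35). ZNRD2, which overlaps FAM89B by 1594 bases on the same strand, had -0.21 (0.83), and reads of the shared stretch may have been split between them. The FAM89B call was lost without any 1 A41 library, A98 replicate 1 or A98 replicate 3 (adjusted p = 0.057 to 0.13).

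A further 6 protein-coding genes were higher in A41. GALNT12, which starts mucin-type sugar chains, had 44.4, 39.2 and 36.1 scaled TPM in A41, against 24.8, 20.5 and 17.2 in A98 (log2 difference 0.92, adjusted p = 0.0092). FAM20C, which phosphorylates secreted proteins, had 155, 165 and 162 in A41, against 102, 89.5 and 99.1 in A98 (0.72, adjusted p = 0.042). FCRLA, an Fc receptor-like gene known from B cells, averaged 8.68 ± 1.78 in A41 and 4.02 ± 0.23 in A98 (0.93, adjusted p = 0.031). None of these groups overlapped. The orphan receptor gene GPR78 was near the limit of detection, with 2.99, 2.74 and 4.45 in A41, against 0.924, 0.238 and 0.534 in A98 (1.49, adjusted p = 0.033). The receptor phosphatase gene PTPRJ averaged 21.3 ± 1.5 in A41 and 14.1 ± 1.6 in A98 (0.56, adjusted p = 0.042), and the amyloid precursor-like gene APLP2 221 ± 5.3 and 170 ± 9.96 (0.38, adjusted p = 0.032); both were picked out after their values were seen. GALNT12 lost its call without A41 replicate 1 (adjusted p = 0.056), A98 replicate 2 (0.061) or A98 replicate 3 (0.072), and FAM20C and PTPRJ in all 9 omissions (0.054 to 0.25). FCRLA lost it in each but that of ethanol replicate 1 (0.051 to 0.19), APLP2 in each but those of A98 replicate 1 and ethanol replicate 1 (0.051 to 0.19), and GPR78 in each but those of A98 replicate 1 and ethanol replicates 1 and 3 (0.051 to 0.23).

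Noncoding RNAs beside RAR-regulated genes were also higher. HOTAIRM1, a long noncoding RNA of the HOXA cluster, had 42.7, 38.7 and 37.7 scaled TPM in A41, against 26.4, 18.4 and 24.4 in A98 (log2 difference 0.77, SE 0.11, adjusted p = 0.0092). A98 averaged 23.1 ± 4.2, bexarotene 23.7 ± 1.8 and ethanol 23.6 ± 1.5 (SD, n = 3 each), and A98 minus ethanol was -0.04 with an interval of -0.28 to 0.19. The handling of strand is not stated, so reads of a gene on the opposite strand cannot be told apart from its own where both overlap. The call was lost without A41 replicate 1 (adjusted p = 0.052). AC254633.1, annotated as a lincRNA 689 bases upstream of DHRS3 on the same strand, had 15.5, 11.3 and 10.7 in A41, against 4.78, 2.57 and 2.29 in A98 (1.71, adjusted p = 0.031). Whether its reads belong to transcripts of DHRS3 was not tested, and its call was lost in 7 of 9 omissions, with adjusted p-values of 0.10, 0.099 and 0.078 without A41 replicates 1, 2 and 3, 0.19 and 0.17 without A98 replicates 2 and 3, and 0.051 and 0.054 without ethanol replicates 2 and 3.

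Along the HOXA cluster on chromosome 7, 6 genes from HOTAIRM1 to HOXA5 were tested and 1, HOTAIRM1, passed. HOXA5 had 3.50, 3.24 and 3.84 scaled TPM in A41, against 1.67, 1.46 and 1.84 in A98 (log2 difference 0.77, adjusted p = 0.088). HOXA3 had 6.28, 5.00 and 5.72 in A41, against 2.93, 2.49 and 3.98 in A98 (0.70, adjusted p = 0.43). HOXA4 had 11.99, 6.36 and 4.55 in A41, against 4.51, 3.73 and 3.92 in A98 (0.68, adjusted p = 0.69), and replicate 1 set the height of its A41 mean. For these 3 and HOTAIRM1, 4 of the 6, all A41 libraries lay above all A98 libraries, beside 6.11% of all genes. The listed span of HOXA3 contains HOXA4 and HOXA5 on the same strand. Reads may be shared between these genes, so they are not independent. HOXA2 and the antisense RNA HOXA-AS2 overlapped between groups. HOX genes encode transcription factors that set position along the body axis, and of 22 tested members over the 4 clusters 0 passed and the median was 0.06.

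**Figure D4:**
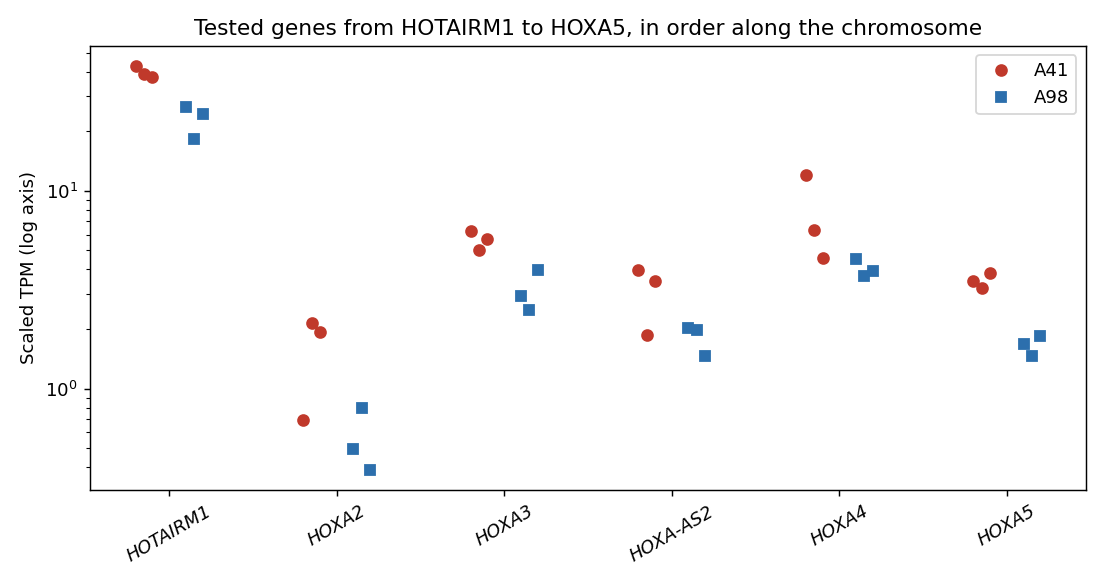
Scaled TPM (log axis) of the 6 tested genes from HOTAIRM1 to HOXA5 in the HOXA cluster is shown for each library of A41 (red circles) and A98 (blue squares), ordered along the chromosome. HOTAIRM1, HOXA3, HOXA4 and HOXA5 do not overlap between the groups, and HOXA2 and HOXA-AS2 do.

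The genes lower in A41 numbered 5, and 4 of them were above the lower limit of the test in all libraries. HMGA2, a chromatin protein of embryonic and tumour cells, had 77.5, 68.2 and 77.9 scaled TPM in A41, against 107, 107.5 and 100.3 in A98 (log2 difference -0.49, SE 0.08, adjusted p = 0.016). Ethanol averaged 132 ± 6.9, from which A41 differed by -0.81 (adjusted p = 2.71e-05) and A98 by -0.32 (0.37). SPRY2, a feedback inhibitor of growth factor signals, had 33.7, 39.1 and 35.1 in A41, against 58.0, 53.8 and 51.2 in A98 (-0.58, adjusted p = 0.0397). It was the 1 of 17 genes of ERK feedback and output that passed. SPRY4 had -0.19 (adjusted p = 0.69), DUSP4 -0.22 (0.55) and DUSP6 -0.02 (0.99). ANKRD28, a subunit of a phosphatase complex, averaged 25.8 ± 2.6 in A41 and 34.9 ± 2.1 in A98 (-0.43, adjusted p = 0.042); RN7SL4P, an abundant RNA on the opposite strand within its span, had 0.43 (0.74). EVI2A, which lies inside the span of NF1 on the opposite strand, had 3.36, 3.33 and 4.08 in A41, against 6.61, 6.19 and 6.71 in A98 (-0.71, adjusted p = 0.049), while NF1 had 0.04 (0.95). HMGA2 lost its call without A41 replicate 2 (adjusted p = 0.082) or A98 replicate 1 (0.082), 2 (0.13) or 3 (0.066). SPRY2 lost it in all 9 omissions (0.054 to 0.19), ANKRD28 in each but that of A41 replicate 3 (0.054 to 0.25) and EVI2A in each but that of ethanol replicate 1 (0.056 to 0.20).

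The calls at STX16-NPEPL1 and SNORA70G rest on features whose reads are hard to assign. STX16-NPEPL1, a readthrough gene that shares its exons with STX16 and NPEPL1, had 166, 439 and 235 scaled TPM in A41, against 0.239, 0.315 and 0.506 in A98 (log2 difference 7.59, SE 1.29, adjusted p = 0.031). A34, a further rexinoid of the series, had 332 in 1 of its libraries. STX16 had a difference of 0.11 (adjusted p = 0.79) and NPEPL1 of -0.54 (0.66). The call was lost in each omission but that of ethanol replicate 1 (adjusted p = 0.051 to 0.18). SNORA70G, the 5th of the lower genes, is a small nucleolar RNA gene of 142 bases on the strand opposite RAP1B, and was singled out after its values were seen. It was listed at 0.356, 0 and 0 in A41, against 1.36, 1.89 and 1.36 in A98, 0 in all bexarotene libraries and 0.66, 0.565 and 0.742 in ethanol. It reached 1 TPM in A98 alone, and so entered the test through the group in which it was high; its call is counted among the 24 and nothing is read from it.

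Growth factor, cytokine and coagulation genes showed large differences that did not pass: 0 of 18 tested coagulation and plasminogen genes, 0 of 15 IL6 family genes, 0 of 10 EGF and HGF ligands and receptors and 0 of 22 adhesion, guidance and matrix genes. The cytokine gene LIF had 199, 213 and 134 scaled TPM in A41, against 124, 78.6 and 84.1 in A98 (log2 difference 0.92, adjusted p = 0.32). The anticoagulant gene SERPIND1 had 21.2, 19.9 and 11.2 in A41, against 9.48, 7.52 and 4.49 in A98 (1.18, adjusted p = 0.083), and the thrombin receptor gene THBD 10.5, 8.65 and 6.13, against 5.48, 2.83 and 4.505 (0.84, adjusted p = 0.16). In all 3 the lowest A41 library was above the highest A98 library, which was also true of 6.11% of all genes. Of the 18 coagulation and plasminogen genes, 3 were higher in A41 without overlap and 2 lower. Of the 15 IL6 family genes these counts were 3 and 0. The growth factor gene HGF averaged 3.86 ± 0.33 in A41 and 5.38 ± 0.90 in A98 (-0.38, adjusted p = 0.29), and the EGF-family ligand gene EREG 50.8 ± 13.5 and 84.9 ± 13.03 (-0.75, adjusted p = 0.19). The semaphorin receptor gene NRP2 averaged 137 ± 11.2 and 81.1 ± 8.1 (0.75, adjusted p = 0.099), and the integrin gene ITGB3 187 ± 23.6 and 119 ± 9.9 (0.65, adjusted p = 0.11). With array weights NRP2 (adjusted p = 0.011), ITGB3 (0.023) and EREG (0.030) passed.

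**Figure D5:**
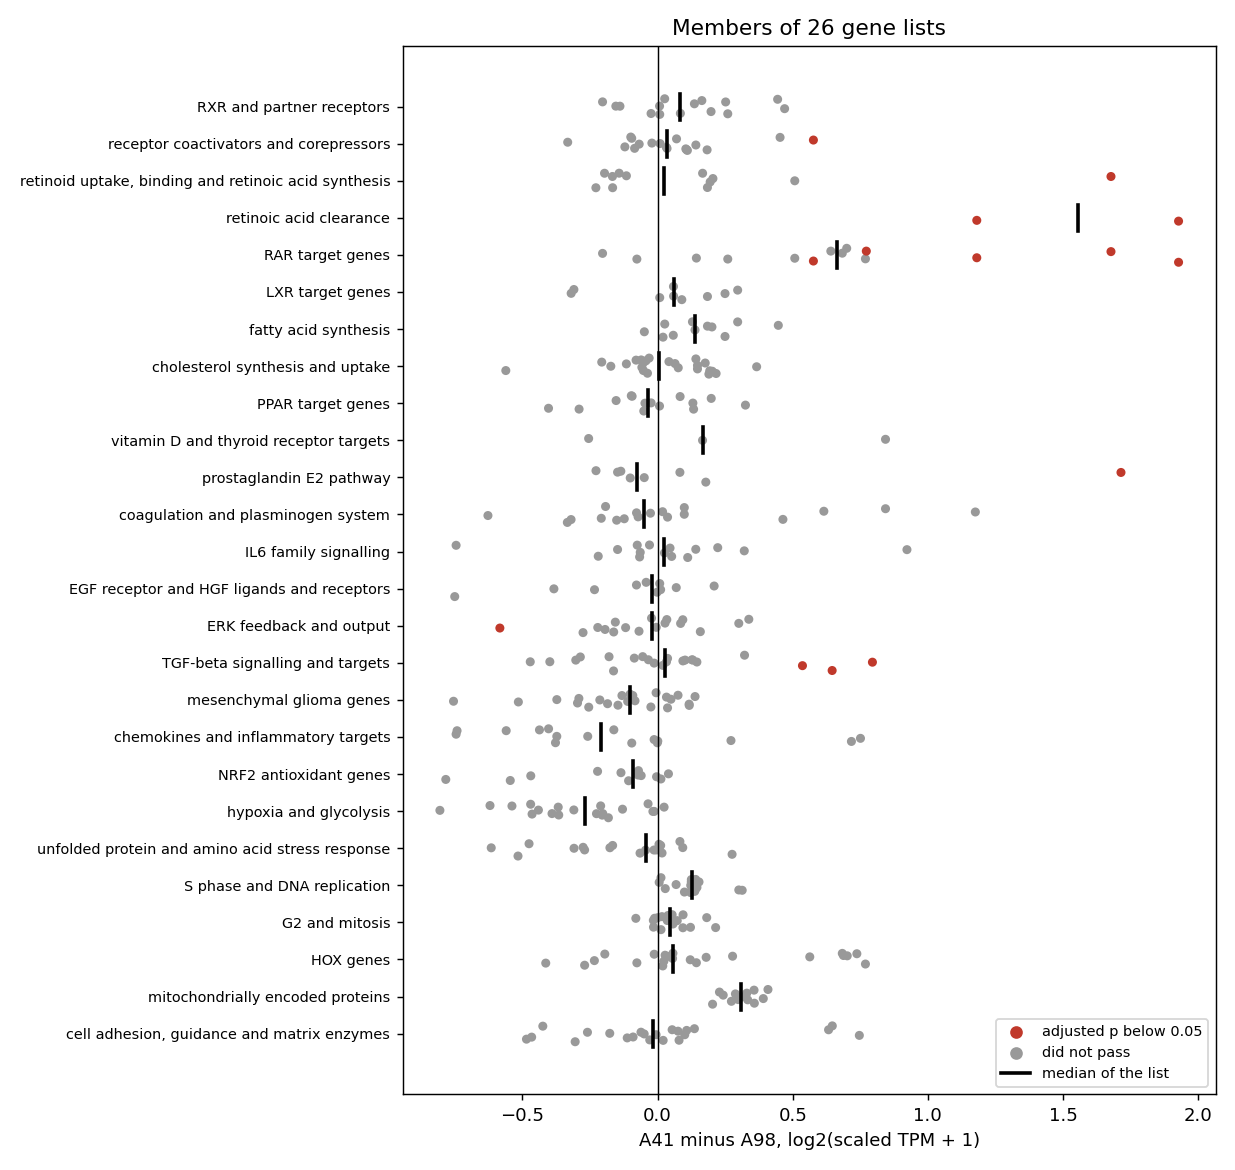
Every tested member of 26 gene lists is a point on the axis of A41 minus A98, log2(scaled TPM + 1), red where adjusted p is below 0.05, with a black bar at the median of each list. Members past the threshold fall in 7 lists, and 5 of 14 RAR target genes are red beside 0 of 9 LXR targets, 0 of 14 PPAR targets and 0 of 15 receptors. Of all genes tested 0.131% passed, and the lists were chosen with earlier results of these data known.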

How the data were processed

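RNA from U87 cells was ribosomal RNA-depleted and sequenced, per the labels' protocols. The submitters' processing notes name GRCh38, STAR, StringTie and MultiQC; of versions, annotation release and strand handling nothing is given in the sources used here. Per the file headers, the authors' tables give TPM, FPKM and coverage per gene. The deposited TPM was analysed. The deposited FPKM and the coverage signal served to read depth (1.31 to 3.89 aligned gigabases over 18 libraries). Within a library their ratio is taken to be the same for genes with 1 reported transcript, and its most frequent value was used. From 2107 to 2923 genes a library lay at that value. Read counts are not part of the tables, which leaves out count models, and depth limits genes near 1 TPM most.

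TPM was summed by gene ID and divided by median-of-ratios factors (0.419 to 1.21) over 16349 genes. The genes tested reached 1 TPM in 3 or more of 18 libraries and were fitted as log2(scaled TPM + 1) with limma 3.58.1 in R 4.3.3: all 18 libraries, 6 groups, no covariates, trend on mean level, two-sided, with 12 residual degrees of freedom. The steps were tested on simulated data.

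Genes were named by a rule: the 12 largest calls in each direction with groups that do not overlap, a mean of at least 2 scaled TPM and a span of at least 300 bases, 22 fixed genes, each list member that passed, and up to 2 members of smallest p from lists with none. The members and lists were chosen with earlier results of these data known. Further genes are quoted to fill out a list. RefSeq promoters (GRCh38.p14) matched 10499 genes tested, 14 of the 19 higher calls among them, so no share is given over the calls. Some members of the gene lists are not reported here by name.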

Additional observations from a re-analysis of the deposited data

How the results depend on the processing

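The count of genes higher and lower in A41, 19 and 5, moved with most choices. It was 1 and 0 on TPM as deposited, 6 and 3 with a constant total, 9 and 4 with only the 6 libraries of the pair, 20 and 3 without the trend, 82 and 65 with array weights, and 6 and 0 when the 3 libraries rich in ribosomal RNA were left out. Leaving out 1 library gave 6 to 18 genes higher and 0 to 7 lower. All 24 genes were among the 147 called with array weights. With array weights 55.8% of calls were higher, beside 79.2% of the 24. A pseudocount of 0.1 gave 18 and 4, no filter 13 and 4, and at least 5 TPM 18 and 7. APLP2 turned to -0.14 on TPM as deposited (adjusted p = 0.80), which is 0.28 relative to the median of all genes there. The cause of these shifts was not tested. Depth limits GPR78 and other genes near 1 TPM most.

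Across all genes, the deviations of A41 and A98 libraries with the same number in their titles had correlations of -0.0248, -0.0362 and 0.0556. By the deposited numbers in place of the titles, the same-numbered pairs had 0.0756 and 0.0556. Such values do not exclude a replicate effect at single genes. SLC2A1 fell from replicate 1 to replicate 3 in both groups, and ANGPTL4 was highest in replicate 1 of both. The main fit held no replicate term. With a replicate block from the titles 28 genes were higher and 7 lower; with a replicate block from the numbers in the names of the tables, 15 genes were higher and 2 lower. NRP2 (adjusted p = 0.0018 and 0.037) and ITGB3 (0.0011 and 0.022) passed with both blocks, and SERPIND1 (0.023) and LIF (0.030) with that from the titles.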

Other observations

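Of 20 tested hypoxia and glycolysis genes 0 passed, 19 differences were negative and the median was -0.27, beside 0.00 for all genes. The hypoxia-induced gene NDRG1 had 275, 111 and 105 scaled TPM in A41, against 379, 247 and 185 in A98 (log2 difference -0.81, adjusted p = 0.76). The glucose transporter gene SLC2A1 had 69.3, 32.9 and 29.4 in A41, against 78.4, 60.3 and 53.0 in A98, and the mitophagy receptor gene BNIP3L 161, 75.5 and 86.6, against 159, 142 and 125. In each of the 3 genes A41 replicate 1 was well above the other A41 libraries and within or above the A98 range. Without the 3 libraries rich in ribosomal RNA the list's median, relative to that of all genes, was -0.13.

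All 13 mitochondrially encoded protein genes had positive differences, from 0.20 to 0.41, and 0 passed. In 12 of them every A41 library lay above every A98 library, beside 6.11% of all genes. These genes share transcripts and libraries, so they are not independent. The respiratory chain gene MT-ND1 had 3678, 4035 and 3806 scaled TPM in A41, against 2844, 2896 and 3040 in A98, with a log2 difference of 0.39 and an interval of -0.14 to 0.92. Ethanol averaged 3450 ± 223, between them. All 13 stayed positive, relative to the median of all genes, on TPM as deposited and with a constant total.

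Of 18 S phase and DNA replication genes 0 passed and 18 had positive differences, with a median of 0.13; relative to the median of all genes, 14 were positive on TPM as deposited and 16 with a constant total. The replication licensing gene CDC6 had 27.8, 32.04 and 28.8 scaled TPM in A41, against 21.0, 25.2 and 25.3 in A98 (0.30, adjusted p = 0.43). The cell cycle inhibitor gene CDKN1A had 79.7, 86.6 and 81.5 in A41, against 96.0, 99.5 and 100.6 in A98 (-0.26, adjusted p = 0.29). G2 and mitosis genes had 0 of 18 past the threshold and a median of 0.05.

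Among NRF2 antioxidant genes 0 of 12 passed and the median was -0.09. The cystine transporter gene SLC7A11 was nearest, with 9.07, 4.81 and 7.11 scaled TPM in A41, against 12.4, 12.4 and 12.5 in A98 (-0.78, adjusted p = 0.058), and it passed without A41 replicate 1 (adjusted p = 0.0077). The glutathione synthesis gene GCLM had 20.6, 12.98 and 18.6 in A41, against 25.5, 25.4 and 25.4 in A98 (-0.55, adjusted p = 0.21). Mesenchymal glioma genes had 0 of 23 past the threshold and a median of -0.10; VIM had a difference of -0.29 (adjusted p = 0.52). The asparagine synthetase gene ASNS had -0.62 (adjusted p = 0.29) within a stress response list of which 0 of 19 passed. Of 16 chemokine and inflammatory genes 0 passed; CCL2 had 35.9, 25.6 and 33.4 scaled TPM in A41, against 16.1, 24.2 and 16.6 in A98 (0.72, adjusted p = 0.29), and CCL3 3.33, 2.15 and 2.82, against 6.17, 5.23 and 4.46 (-0.74, adjusted p = 0.44).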
